A study of Mus musculus with 12 samples.

Results

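The genes described here make and break down eicosanoids, the signalling lipids derived from arachidonic acid. They were Alox15, Alox5, Alox5ap, Lta4h, Ltc4s, Ptgs1, Ptgs2, Tbxas1, Cyp4f18 and Hpgds, chosen by name. Every probe that the platform annotation assigns to one of these symbols was taken. Of the 10 genes, 9 had at least 1 of 16 probes, and Ptgs1 was not analysed here. Of these, 6 passed the filter on dim probes and were tested among 6563 genes.

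RNA was measured on Illumina arrays in alveolar macrophages, the phagocytes that reside in the airspaces, lavaged from C57Bl/6J mice aged 8 to 12 weeks. Lmp7 is the protein name of Psmb8, a catalytic subunit of the immunoproteasome that the knockout mice lack. The 4 groups of 3 arrays were Lmp7 knockout cells polarized for at most 24 h with 20 ng/ml of interleukin-4, or IL-4 (knockout M2), unpolarized Lmp7 knockout cells (knockout M0), wild-type cells given the same IL-4 (wild-type M2) and unpolarized wild-type cells (wild-type M0). The labels describe the wild-type mice as controls and do not name how the Lmp7 allele was made. Whether replicates are different mice is not stated either, and p-values therefore reflect how far the deposited samples scatter, possibly for technical reasons alone.

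Arachidonic acid freed from membranes enters several routes. In the leukotriene route, the 5-lipoxygenase Alox5, helped by the membrane protein Alox5ap (FLAP), makes leukotriene A4, which Lta4h turns into the neutrophil attractant leukotriene B4 and Ltc4s joins to glutathione to form leukotriene C4, the parent of the cysteinyl leukotrienes. In the prostanoid route, the cyclooxygenases Ptgs1 and Ptgs2 make prostaglandin H2, which Tbxas1 turns into thromboxane A2 and Hpgds into prostaglandin D2. Alox15 is the 12/15-lipoxygenase, and Cyp4f18 hydroxylates leukotriene B4 in mouse myeloid cells, a step in its breakdown. Alveolar macrophages are a known source of leukotriene B4 and thromboxane A2.

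Promoters are shown for 3 genes with an adjusted p under 0.05 (limma) between M2 and M0 cells. Tbxas1 and Ltc4s had this in both genotypes and Hpgds in knockout cells only. They are shown because IL-4 acts through the transcription factor STAT6 and because PU.1 is a master regulator of macrophage genes. The 300-base windows run from 250 bases before the transcription start to 50 bases after it, read 5′ to 3′ on the strand of the gene, from RefSeq (GRCm38.p6). Tbxas1 lies on the plus strand at chr6:38918736-38919035, Hpgds on the minus strand at chr6:65144681-65144980 and Ltc4s on the minus strand at chr11:50238483-50238782. Capitals mark matches to a STAT6 motif (TTCNNNNGAA) and to the PU.1 core (GAGGAA), searched on both strands, and no match to one overlapped a match to the other.
Tbxas1 promoter: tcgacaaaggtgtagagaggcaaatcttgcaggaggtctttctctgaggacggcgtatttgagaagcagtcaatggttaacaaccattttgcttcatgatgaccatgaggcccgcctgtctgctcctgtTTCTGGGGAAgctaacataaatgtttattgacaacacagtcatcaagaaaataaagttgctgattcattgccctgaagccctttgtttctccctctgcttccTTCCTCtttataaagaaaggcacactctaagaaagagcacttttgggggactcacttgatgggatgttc
Hpgds promoter: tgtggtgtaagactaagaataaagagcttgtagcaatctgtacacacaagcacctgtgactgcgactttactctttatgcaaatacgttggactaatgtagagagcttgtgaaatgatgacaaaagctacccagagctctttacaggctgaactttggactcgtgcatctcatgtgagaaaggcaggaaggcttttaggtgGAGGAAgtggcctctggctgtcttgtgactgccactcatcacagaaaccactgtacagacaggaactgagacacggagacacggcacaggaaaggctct
Ltc4s promoter: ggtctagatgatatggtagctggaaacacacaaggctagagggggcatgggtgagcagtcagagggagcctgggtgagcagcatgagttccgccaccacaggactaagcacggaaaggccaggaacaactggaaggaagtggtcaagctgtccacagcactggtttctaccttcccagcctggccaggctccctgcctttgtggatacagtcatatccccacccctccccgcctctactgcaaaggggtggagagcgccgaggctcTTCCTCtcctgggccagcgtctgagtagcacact
The Tbxas1 window held 1 STAT6 match, TTCTGGGGAA, which began 121 bases before the start, and a PU.1 match that began 19 bases before it. The Hpgds and Ltc4s windows held no STAT6 match, and each held 1 PU.1 match, which began 49 bases before the start in Hpgds and 16 bases after it in Ltc4s. The windows of Alox5, Lta4h, Ptgs1, Ptgs2 and Cyp4f18, which are not shown, each held 1 PU.1 match as well. A PU.1 match thus did not set apart the 3 genes shown. Over 32851 mouse promoter windows of this length, 6.95% held the STAT6 motif and 28.3% the PU.1 core. These are matches of letters and say nothing about binding in these cells. Alox5ap was not in the promoter table.

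The arrays detected 25.5% to 34.2% of 25697 probes (detection p under 0.05), and the 3 lowest shares were on array a of knockout M2, knockout M0 and wild-type M0 cells. Psmb8 was not detected on any of the 6 knockout arrays (5.36 to 5.79) and was detected on all 6 wild-type arrays (7.53 to 8.04 on the log2 scale). Ccl17, a chemokine that IL-4 induces in macrophages, was detected on all 6 M2 arrays and on no M0 array. Of 13 alveolar macrophage markers with a probe, 12 were detected, and Car4 was not. All 6 eosinophil markers and 8 of 10 mast cell and basophil markers were undetected on every array, among them Cpa3, Ms4a2 and Gata2. Of the mast cell and basophil markers that were detected, Fcer1a was so on 2 of 3 knockout M2 and all 3 wild-type M2 arrays and on no M0 array, and Cma1 on 1 knockout M0 array. Of 7 platelet markers, 4 were undetected on every array, among them Ppbp and Itga2b, whereas Gp9 was detected on all 12 arrays and Pf4 on 4. Arrays of bulk cells cannot tell fewer cells of a type from less RNA per cell.

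Values below are log2 normalized intensities, and arrays are named a, b and c within a group. A difference is followed by its standard error (SE), and adjusted p-values are from limma with Benjamini-Hochberg adjustment over all 6563 genes. An adjusted p under 0.05 counts as past the threshold. In knockout cells, 1 of the 6 tested genes was higher in M2 than in M0 past the threshold, as were 10.3% of all genes, and 3 were lower, as were 11.4% of all genes. In wild-type cells, 1 of the 6 was higher, as were 8.43% of all genes, and 2 were lower, as were 7.62%. M2 and M0 arrays did not overlap for 3 of the 6 in knockout cells, against 36.4% of all genes, and for 4 of the 6 in wild-type cells, against 34.1%. Tbxas1 was the gene that rose in both genotypes, and Alox5ap and Ltc4s fell in both. Of the 6 genes, 1 was higher in knockout than in wild-type cells in M2, against 0.670% of all genes, and 1 in M0, against 0.381%. That gene was Cyp4f18 each time. None was lower in either state, against 1.37% of all genes in M2 and 0.305% in M0. Cyp4f18 and Hpgds passed the filter through the groups where they were brighter, so these counts are a description and not a measure of the whole set.

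**Figure D1:**
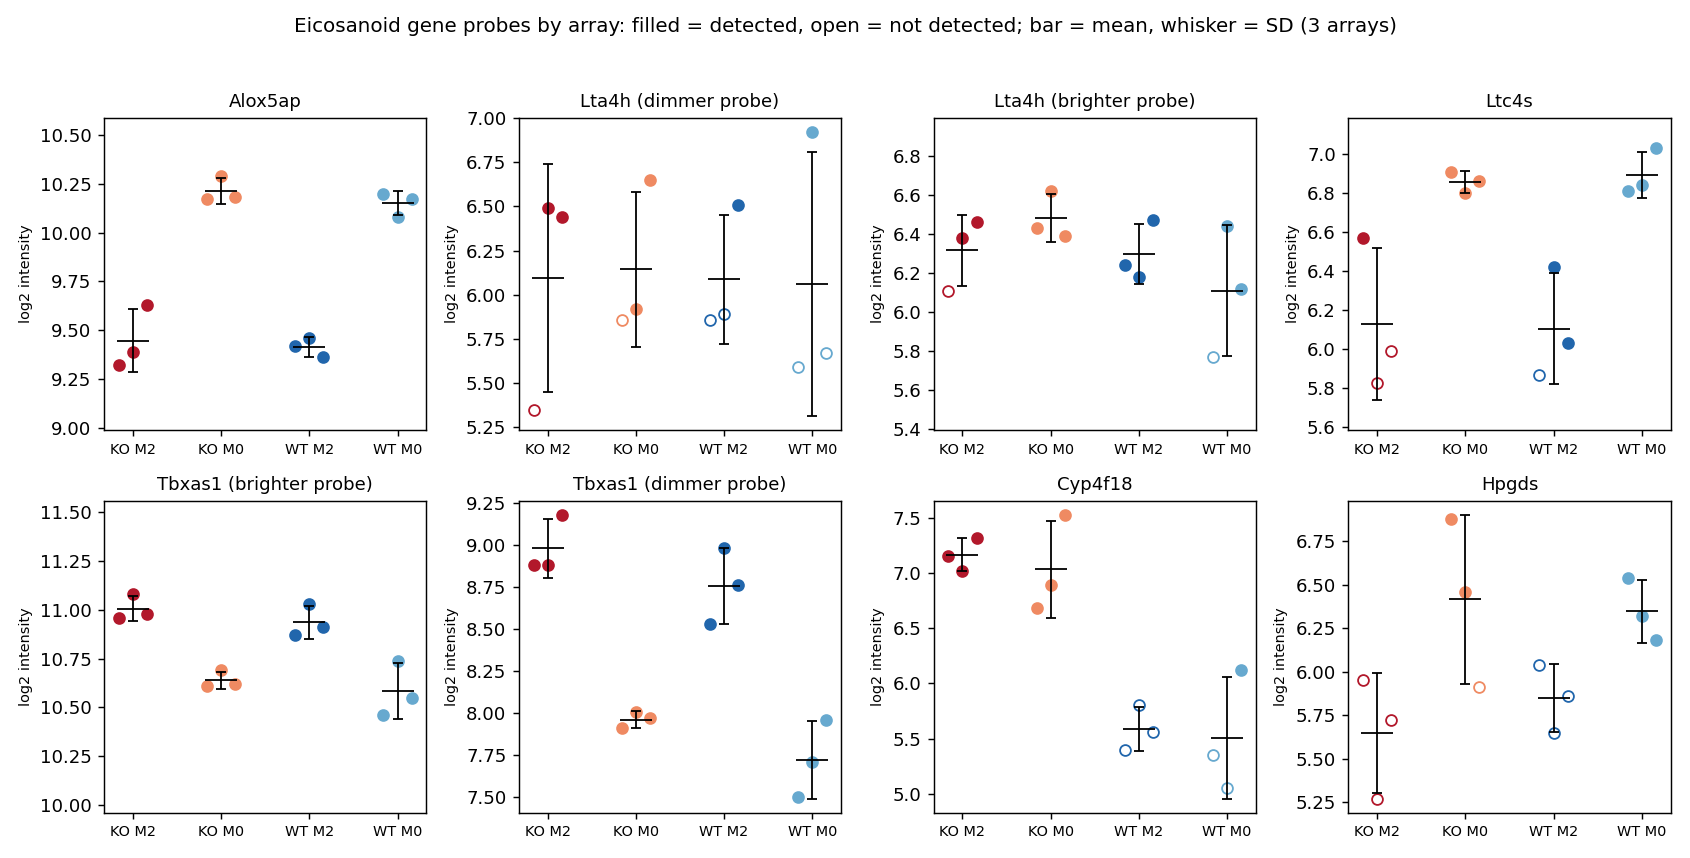
Log2 normalized intensity (vertical axis) of the 8 probes of 6 genes that passed the filter, in the 3 arrays of each group (KO is Lmp7 knockout, WT is wild type). Filled points were detected, open points were not, bars are means and whiskers SD (n = 3). Alox5ap lies between 9.32 and 9.63 on the M2 arrays and between 10.08 and 10.29 on the M0 arrays, and Cyp4f18 lies higher on the 6 knockout arrays than on the 6 wild-type arrays.

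Of the lipoxygenases, neither was detected. Both probes of Alox15 stayed between -52 and 6 raw intensity units after background subtraction, and their lowest detection p on any of the 12 arrays was 0.289. The probe of Alox5 stayed between -27 and 4 units, with a lowest detection p of 0.368. So Alox5, the enzyme that Alox5ap serves, gave no level on these arrays, and no difference between groups was measurable for it. Tested without the filter, Alox15 differed between M2 and M0 by -0.08 ± 0.092 in knockout and by 0.09 ± 0.092 in wild-type cells, and Alox5 by -0.03 ± 0.085 in knockout and by 0.05 ± 0.085 in wild-type cells. None of these was past the threshold, the lowest adjusted p from limma being 0.795 among 16593 genes, and differences between values at background have no meaning as fold changes.

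Alox5ap was detected on all 12 arrays. In knockout cells its 3 values were 9.32, 9.39 and 9.63 in M2, against 10.17, 10.29 and 10.18 in M0. In wild-type cells they were 9.42, 9.46 and 9.36 in M2, against 10.20, 10.08 and 10.17 in M0. Every M2 array was below every M0 array, in both genotypes. The level fell by 0.77 ± 0.104 log2 units in knockout cells (1.70-fold lower, adjusted p = 0.000373 from limma) and fell by 0.74 ± 0.104 in wild-type cells (1.67-fold lower, adjusted p = 0.000842). Where arrays were scaled to equal medians instead of quantile normalized, the wild-type difference was not past the threshold (adjusted p = 0.0744). The responses differed by -0.03 ± 0.148, with a 95% interval of -0.35 to 0.30. The genotypes overlapped in each state, with differences of 0.04 ± 0.104 in M2 (adjusted p = 0.954) and 0.06 ± 0.104 in M0 (adjusted p = 0.906).

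Ltc4s, the enzyme that commits leukotriene A4 to the cysteinyl leukotrienes, moved in the same direction as Alox5ap. It had 6.57, 5.83 and 5.99 in knockout M2 cells, against 6.91, 6.80 and 6.86 in knockout M0 cells. In wild-type cells it had 5.87, 6.42 and 6.03 in M2, against 6.81, 6.84 and 7.03 in M0. No M2 array reached an M0 array of its genotype. All M0 arrays detected Ltc4s, whereas 1 of 3 knockout M2 and 2 of 3 wild-type M2 arrays did, so part of the M2 values lies near background. It fell by 0.73 ± 0.190 in knockout cells (adjusted p = 0.0181) and fell by 0.78 ± 0.190 in wild-type cells (adjusted p = 0.0166). The responses differed by 0.05 ± 0.268 (95% interval -0.54 to 0.64). The call was lost in knockout cells without knockout M2 array b or c or knockout M0 array a or c, and in wild-type cells without wild-type M2 array a or c or wild-type M0 array c. Over all 12 arrays left out in turn, the difference ranged between -0.96 and -0.58 in knockout cells (highest adjusted p 0.0672) and between -0.94 and -0.67 in wild-type cells (highest adjusted p 0.0700).

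Lta4h, on the branch to leukotriene B4, was not past the threshold in any comparison. Its brighter probe gave 6.11, 6.38 and 6.46 in knockout M2 cells, against 6.43, 6.62 and 6.39 in knockout M0 cells. Wild-type cells gave 6.24, 6.18 and 6.47 in M2, against 5.77, 6.44 and 6.12 in M0. The groups overlapped in every comparison. The difference between M2 and M0 was -0.16 ± 0.169 in knockout cells (95% interval -0.53 to 0.21, adjusted p = 0.575) and 0.18 ± 0.169 in wild-type cells (95% interval -0.19 to 0.55, adjusted p = 0.540). Between genotypes it was 0.02 ± 0.169 in M2 (adjusted p = 0.985) and 0.37 ± 0.169 in M0 (adjusted p = 0.511). The dimmer Lta4h probe, detected on 6 arrays, had an SE of 0.400 and could show little.

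Of the prostanoid route, Ptgs2 was not detected on any array with either of its probes, which stayed between -44 and -1 raw intensity units. Tbxas1, thromboxane A synthase, was detected on all 12 arrays with both of its probes. The brighter probe, which represented the gene, had 10.96, 11.08 and 10.98 in knockout M2 cells, against 10.61, 10.69 and 10.62 in knockout M0 cells. Wild-type cells had 10.87, 11.03 and 10.91 in M2, against 10.46, 10.74 and 10.55 in M0. All M2 arrays were above all M0 arrays. The rise was 0.36 ± 0.102 in knockout cells (1.29-fold, adjusted p = 0.0251) and 0.35 ± 0.102 in wild-type cells (1.28-fold, adjusted p = 0.0364). Scaled to equal medians, neither was past the threshold (adjusted p = 0.325 in knockout and 0.342 in wild-type cells).

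The dimmer Tbxas1 probe showed a larger rise. It had 8.88, 8.88 and 9.18 in knockout M2 cells, against 7.91, 8.01 and 7.97 in knockout M0 cells. Its wild-type values were 8.53, 8.98 and 8.76 in M2, against 7.50, 7.71 and 7.96 in M0. Tested probe by probe and adjusted over the 8626 named probes kept by the filter, it rose by 1.02 ± 0.152 in knockout cells (adjusted p = 0.000683) and by 1.03 ± 0.152 in wild-type cells (adjusted p = 0.00104). The probes thus gave one direction and different sizes, and which size is closer to that of the transcript was not tested. The genotypes overlapped for both probes in each state. For the brighter probe the responses differed by 0.01 ± 0.144 (95% interval -0.30 to 0.33). Its call was lost in knockout cells without knockout M2 array b or knockout M0 array a or c, and in wild-type cells without any of 6 arrays (all 3 of wild-type M2, arrays a and c of wild-type M0, and array c of knockout M0). Over the arrays left out in turn, the rise ranged between 0.33 and 0.39 in knockout cells (highest adjusted p 0.0779) and between 0.30 and 0.43 in wild-type cells (highest adjusted p 0.128).

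Hpgds, haematopoietic prostaglandin D synthase, was detected in M0 cells and not in M2 cells. It had 5.95, 5.27 and 5.72 in knockout M2 cells, against 6.88, 6.46 and 5.91 in knockout M0 cells. In wild-type cells it had 6.04, 5.65 and 5.86 in M2, against 6.54, 6.32 and 6.18 in M0. None of the 6 M2 arrays detected it, whereas 2 of 3 knockout M0 and all 3 wild-type M0 arrays did. It was at least 1.24-fold lower in knockout M2 than in knockout M0 cells, where the fitted difference was -0.77 ± 0.241 (adjusted p = 0.0415), although the 2 groups overlapped by 1 array. In wild-type cells it was at least 1.25-fold lower in M2, with no overlap, but the fitted difference of -0.50 ± 0.241 was not past the threshold (adjusted p = 0.205). The responses differed by -0.27 ± 0.341 (adjusted p = 0.981), so the knockout and wild-type responses were not distinguishable. The knockout call was lost on leaving out any of 9 arrays (knockout M2 b and c, knockout M0 a and b, the 3 of wild-type M2, and wild-type M0 b and c), with differences between -1.02 and -0.54 and adjusted p-values up to 0.142 over all 12. These bounds compare the brighter group's mean with the higher of the probe's own value and the lowest detected signal on each dim array. The second Hpgds probe was detected on 1 array, knockout M0 b.

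**Figure D2:**
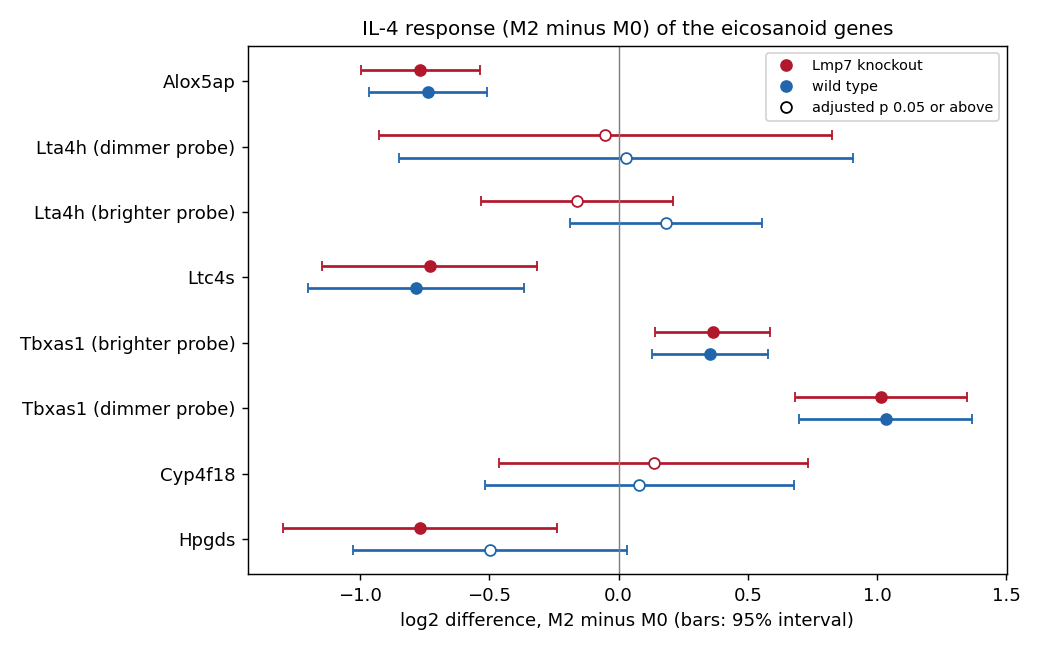
Difference between M2 and M0 cells (horizontal axis, log2 units, with 95% intervals) for each probe in Lmp7 knockout and wild-type cells. Filled points have an adjusted p under 0.05, and open points do not. Alox5ap and Ltc4s lie left of 0 and both Tbxas1 probes right of 0 in each genotype, with intervals of the genotypes that overlap.

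Cyp4f18 stood out between genotypes. Its detected probe had 7.16, 7.02 and 7.32 in knockout M2 cells, against 5.40, 5.80 and 5.56 in wild-type M2 cells. In M0 it had 6.68, 6.89 and 7.53 in knockout cells, against 5.35, 5.05 and 6.12 in wild-type cells. All 6 knockout arrays detected it, and of the wild-type arrays only array c of M0 did. In raw units, knockout M2 arrays had 123, 131 and 126 and knockout M0 arrays 84, 110 and 134, against 25, 58 and 29 on wild-type M2 arrays and 21, -1 and 49 on wild-type M0 arrays. In M2 cells it was at least 2.2-fold higher in the knockout, with a fitted difference of 1.58 ± 0.271 (adjusted p = 0.0143). In M0 cells the difference was 1.52 ± 0.271 (95% interval 0.93 to 2.12, adjusted p = 0.0310), which includes values near background. The groups did not overlap in either state, as was so for 19.2% of all genes in M2 and 14.8% in M0. The other 2 Cyp4f18 probes were not detected on any array, so the difference rests on 1 probe. In the authors' processed values with the replicate number as a block, the difference was 0.99 in M2 and 1.06 in M0, past the threshold in each. The M0 call was lost with no filter on dim probes (adjusted p = 0.0621 from limma) and with only the groups compared in the fit (0.218). Without the 3 arrays of lowest detected share, the calls in M0 (0.157) and in M2 (0.0593) were both lost.

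Between M2 and M0, Cyp4f18 did not differ beyond the spread of the arrays. The difference was 0.14 ± 0.271 in knockout cells (95% interval -0.46 to 0.73, adjusted p = 0.787) and 0.08 ± 0.271 in wild-type cells (95% interval -0.52 to 0.68, adjusted p = 0.898). The genotype call in M2 was lost without knockout M2 array c or wild-type M2 array a or c, with differences between 1.49 and 1.68 and adjusted p-values up to 0.0762. The call in M0 was lost without any of 7 arrays (knockout M2 c, knockout M0 b and c, wild-type M2 a and c, and wild-type M0 a and b), with differences between 1.27 and 1.83 and adjusted p-values up to 0.109.

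Neutrophils are the cells in which Cyp4f18 is best known. The summed level of 9 neutrophil markers with a probe was 612 to 805 on knockout M2 arrays, against 420 to 506 on wild-type M2 arrays, and 631 to 728 on knockout M0 arrays, against 489 to 521 on wild-type M0 arrays. Of the 9, S100a9, Retnlg, Mmp8, Ngp and Ltf were undetected on every array. Cxcr2, a chemokine receptor of neutrophils, was higher in knockout cells by 1.86 in M2 (adjusted p = 0.00576) and by 1.54 in M0 (adjusted p = 0.0296). It accounted for most of the M2 difference of the sum, with means of 8.31 in knockout M2 and 6.45 in wild-type M2 cells. No wild-type M0 array detected Cxcr2, so its M0 difference includes values at background. S100a8 differed by 0.16 in M2 (adjusted p = 0.788) and 0.55 in M0 (adjusted p = 0.194). Camp differed by -0.22 in M2 (adjusted p = 0.856) and 0.24 in M0 (adjusted p = 0.851). Neither was past the threshold. The brightest Csf3r probe, detected on 1 knockout M0 array, did not pass the filter, and the difference of Csf3r is not given. Of 7 markers of interstitial and monocyte-derived macrophages, the summed level was 413 to 451 in knockout M2, against 402 to 404 in wild-type M2 cells, and 385 to 421 in knockout M0, against 263 to 328 in wild-type M0 cells, while Ccr2, Cx3cr1 and F13a1 were undetected. C1qb was higher in knockout cells by a fitted 0.96 in M2 (adjusted p = 0.0177) and 1.17 in M0 (adjusted p = 0.0120). It alone of this list was past the threshold between genotypes. It was detected on 2 knockout M2 and 2 knockout M0 arrays and on no wild-type array. C1qb thus passed the filter on dim probes through knockout cells, and its differences include values at background. C1qc differed by 0.57 in M2 (adjusted p = 0.155) and 0.74 in M0 (adjusted p = 0.120), C1qa by 0.23 in M2 and 0.09 in M0, and Fcrls by -0.57 in M2 and 0.12 in M0. The part of such cells in the Cyp4f18 difference was not tested.

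**Figure D3:**
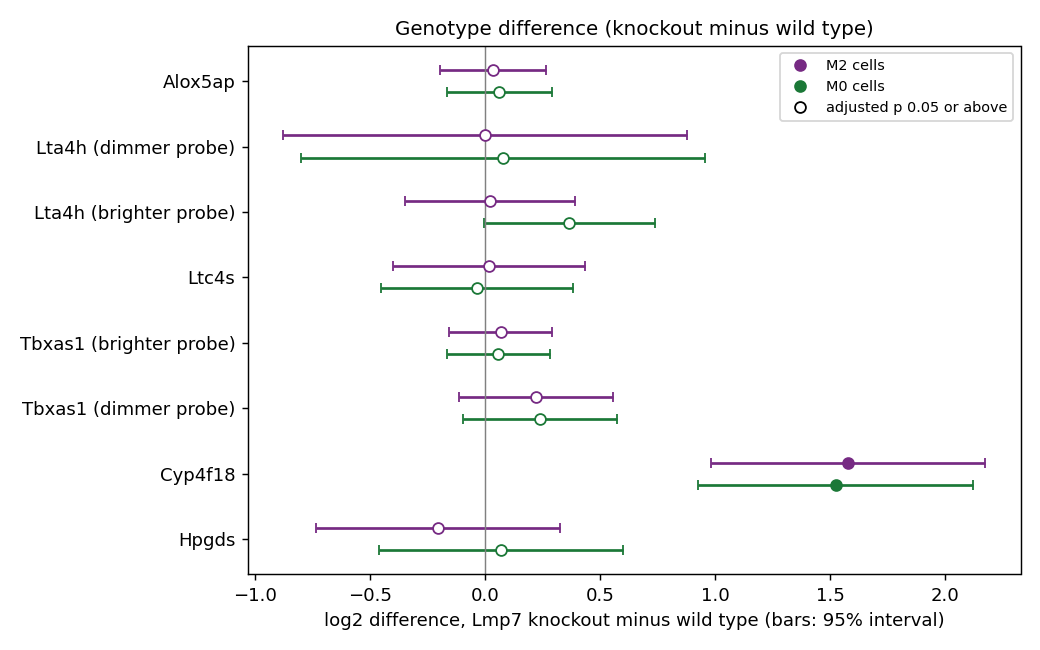
Difference between Lmp7 knockout and wild-type cells (horizontal axis, log2 units, with 95% intervals) for each probe in M2 and M0 cells. Filled points have an adjusted p under 0.05. Cyp4f18, at 1.58 in M2 and 1.52 in M0, is the gene past the threshold, and the intervals of the other probes include 0.

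**Figure D4:**
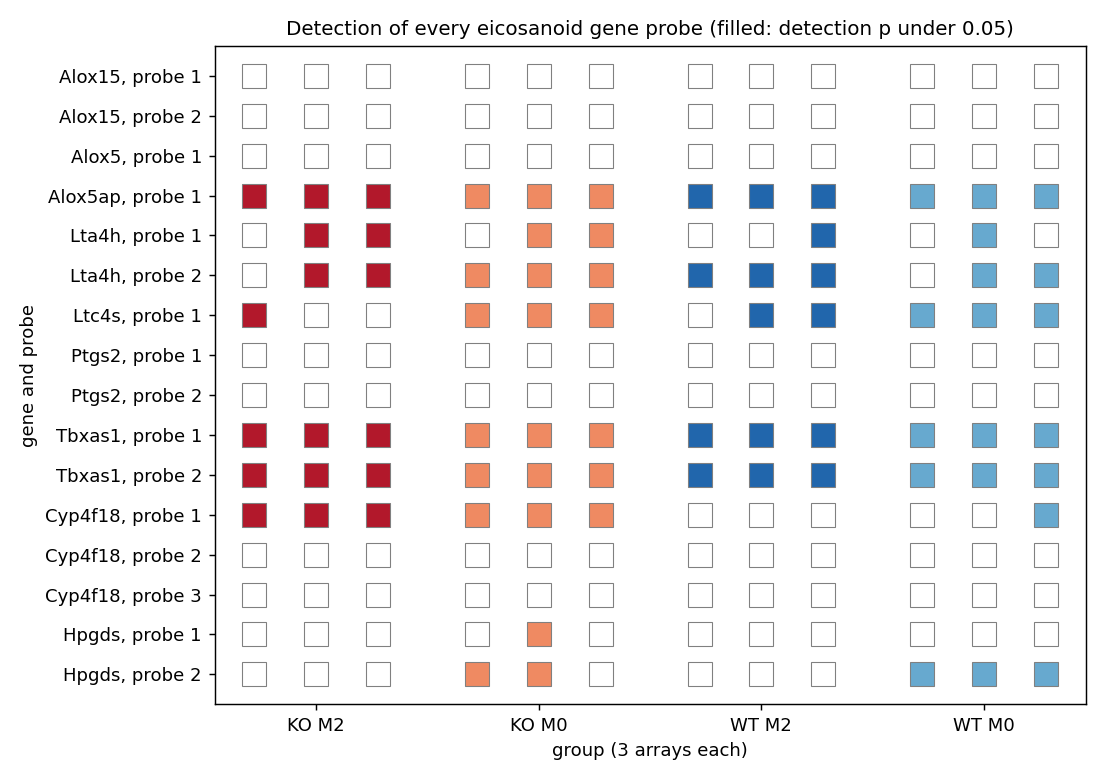
Detection of all 16 probes (vertical axis) on the 12 arrays (horizontal axis, 3 arrays a group). Filled squares have a detection p under 0.05. The rows of Alox15, Alox5 and Ptgs2 are empty throughout, and Cyp4f18 probe 1 is filled on all 6 knockout arrays and on 1 wild-type array.

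None of the 6 genes had an IL-4 response that differed between the genotypes, against 0.107% of all genes (limma, adjusted p under 0.05), and 0 of 6 had an unadjusted p under 0.05, as 6.64% of all genes did. Their median difference of responses was -0.01, against -0.02 over all genes. The median IL-4 response of the 6 was -0.45 in knockout cells, against 0.00 over all genes, and -0.21 in wild-type cells, against 0.00 over all genes. These medians include Hpgds, which passed the filter through M0 arrays alone, where it was brighter. They are therefore a description and not a measure of the whole set.

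Markers of other cells were also set beside the IL-4 differences. The summed level of 7 epithelial markers was 2919 to 3486 in knockout M2, against 1280 to 1366 in knockout M0 cells, and 3087 to 3314 in wild-type M2, against 1456 to 1750 in wild-type M0 cells. Cdh1, which IL-4 is known to induce in macrophages, accounted for most of it, with means of 11.53 in knockout M2, against 10.05 in knockout M0, and 11.53 in wild-type M2, against 10.26 in wild-type M0 cells. No other epithelial marker was past the threshold, and Sftpa1 and Krt18 were undetected on every array. Of the neutrophil markers, S100a8 fell by 1.42 in knockout (adjusted p = 7.51e-05) and by 1.03 in wild-type cells (adjusted p = 0.00112), and Camp did not pass the threshold. Cxcr2 rose by 1.47 in knockout (adjusted p = 0.00269) and by 1.15 in wild-type cells (adjusted p = 0.0148), where no M0 array detected it. Fcrls, of the monocyte-derived macrophage list, rose by a fitted 1.65 in knockout (adjusted p = 0.00032) and 2.34 in wild-type cells (adjusted p = 5.85e-05). It was detected on 2 of 3 knockout M2 and all 3 wild-type M2 arrays and on no M0 array. Fcrls thus passed the filter through M2 cells, and its differences include values at background. Of the platelet markers, Pf4 was lower in knockout M2 than in knockout M0 cells (fitted difference -0.71, adjusted p = 0.0318), with 0 of 3 M2 arrays and 2 of 3 M0 arrays detecting it, and differed by 0.35 in wild-type cells (adjusted p = 0.319). The part of these cells in the IL-4 differences was not tested.

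The wider pathway was described with 5 lists of 103 other genes, of which 90 had a probe and 37 were tested. Between M2 and M0, 11 of 37 were past the threshold in knockout cells (3 higher and 8 lower, against 10.3% and 11.4% of all genes) and 9 of 37 in wild-type cells (2 higher and 7 lower, against 8.43% and 7.62% of all genes). Between genotypes, 5 of 37 were past it in M2 (3 higher, 2 lower), against 2.04% of all genes, and 1 in M0, against 0.686%, which was Pla2g7 with 1.42 ± 0.110 (higher in knockout cells, adjusted p = 9.3e-05). In the authors' processed values with the replicate number as a block, 3 of 37 were past it in M0, which added Acsl3 (0.57 ± 0.101, adjusted p = 0.0183) and Mgst3 (0.52 ± 0.0933, adjusted p = 0.0195). The median IL-4 response over the 37 was -0.05 in knockout and -0.03 in wild-type cells, against 0.00 over all genes in each. Pla2g12a passed the filter through M2 cells, where it was brighter, and Mgst2 and Gpr18 passed it through M0 cells, where they were brighter. The counts and medians of the 37 are therefore a description and not a measure of the whole pathway.

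Among the other genes of leukotriene synthesis, 2 of 6 tested fell with IL-4 in both genotypes, against 11.4% of all genes in knockout and 7.62% in wild-type cells. Mgst2, a microsomal glutathione transferase that can also make leukotriene C4, was one of them. It had 5.67, 5.43 and 6.55 in knockout M2 cells, against 8.69, 8.16 and 8.12 in knockout M0 cells. Wild-type cells had 5.48, 5.07 and 6.18 in M2, against 7.70, 7.52 and 7.70 in M0. M2 and M0 arrays did not overlap. All M0 arrays detected it but only 1 of 3 M2 arrays in each genotype, so the fitted differences include M2 values at background. Mgst2 thus passed the filter on dim probes through M0 cells. It fell by 2.44 ± 0.314 in knockout cells (adjusted p = 0.000268) and fell by 2.07 ± 0.314 in wild-type cells (adjusted p = 0.00125). Mgst1, of the same family, fell by 0.49 ± 0.115 in knockout (adjusted p = 0.0103) and by 0.44 ± 0.115 in wild-type cells (adjusted p = 0.0225). Mgst3 showed no IL-4 response past the threshold, and in M2 it was 0.87 ± 0.154 higher in knockout cells (adjusted p = 0.0159). The Mgst1 call in wild-type cells was lost without any wild-type M2 array or wild-type M0 array a or c (differences between -0.54 and -0.36 over the arrays left out in turn), and the Mgst3 call without knockout M2 array a or c or any wild-type M2 array (0.77 to 0.99).

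Of the receptors, 5 of 23 listed genes were tested, and 3 were past the threshold with IL-4 in each genotype (1 higher, 2 lower). Over all genes, 10.3% were higher and 11.4% lower in knockout cells, and 8.43% higher and 7.62% lower in wild-type cells. Ptgir, the prostacyclin receptor, had 9.79, 9.99 and 9.77 in knockout M2 cells, against 8.40, 8.55 and 8.47 in knockout M0 cells. Its wild-type values were 9.55, 9.50 and 9.65 in M2, against 8.56, 8.70 and 8.70 in M0. Every M2 array was above every M0 array. It rose by 1.37 ± 0.102 in knockout cells (2.59-fold, adjusted p = 5.61e-06) and by 0.91 ± 0.102 in wild-type cells (1.88-fold, adjusted p = 0.000169). Ptger2, the EP2 receptor for prostaglandin E2, was at least 1.67-fold lower in knockout M2 than in knockout M0 cells, where no M2 array detected it (adjusted p = 0.000866), and fell by 0.56 ± 0.173 in wild-type cells (adjusted p = 0.0491). Fpr2, a receptor for formyl peptides and lipoxin A4, fell by 1.35 ± 0.106 in knockout (adjusted p = 9.34e-06) and by 0.40 ± 0.106 in wild-type cells (adjusted p = 0.0258). In M2 it was lower in knockout than in wild-type cells, with a difference of -1.24 ± 0.106 (adjusted p = 0.000121). The wild-type call of Ptger2 was lost on leaving out any array but knockout M0 a or wild-type M2 a (differences between -0.77 and -0.44, adjusted p-values up to 0.172). That of Fpr2 was lost without any wild-type M2 array or wild-type M0 array a or c (-0.43 to -0.36, up to 0.0926).

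Among 13 tested genes of arachidonate release and reacylation, 3 were past the threshold with IL-4 in knockout cells (2 higher, 1 lower) and 2 in wild-type cells (1 higher, 1 lower). The shares over all genes were 10.3% higher and 11.4% lower in knockout cells, and 8.43% higher and 7.62% lower in wild-type cells. Pla2g12a, a secreted phospholipase A2, was detected on all 6 M2 arrays and on no M0 array, and was at least 1.72-fold higher in knockout M2 than in knockout M0 cells and at least 1.28-fold higher in wild-type M2 than in wild-type M0 cells. Plaat3, a phospholipase and acyltransferase also called Pla2g16, rose by 0.58 ± 0.137 in knockout cells (adjusted p = 0.0107), and its difference in wild-type cells was 0.38 ± 0.137 (adjusted p = 0.0874). Pla2g7, which hydrolyses platelet-activating factor and oxidised phospholipids, fell by 1.75 ± 0.110 in knockout (adjusted p = 1.55e-06) and by 0.52 ± 0.110 in wild-type cells (adjusted p = 0.00860). Acsl3, an acyl-CoA synthetase, was higher in knockout cells in M2 by 0.98 ± 0.201 (adjusted p = 0.0340), with 0.93 ± 0.201 in M0 (adjusted p = 0.0841). The M2 call of Acsl3 was lost on leaving out any of 8 arrays, the 6 M2 arrays and array c of knockout M0 and of wild-type M0 (differences between 0.80 and 1.07, adjusted p-values up to 0.127). Its M0 difference was past the threshold without wild-type M0 array b (1.10, adjusted p = 0.0459). The wild-type call of Pla2g12a was lost without array c of wild-type M2 or of wild-type M0 (adjusted p-values up to 0.0616).

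Of 6 tested prostanoid synthases, 1 fell with IL-4 in knockout cells and 0 in wild-type cells, and of 7 tested genes of breakdown and transport, 2 fell in each genotype. Over all genes, 11.4% fell in knockout and 7.62% in wild-type cells. Akr1b8, an aldo-keto reductase, was at least 1.26-fold lower with IL-4 in knockout cells, and in M2 it was at least 1.48-fold lower in knockout than in wild-type cells (adjusted p = 0.0151). Dpep2, a dipeptidase that turns leukotriene D4 into leukotriene E4, fell by 0.56 ± 0.120 in knockout (adjusted p = 0.00641) and by 0.39 ± 0.120 in wild-type cells (adjusted p = 0.0474). Cyp4f16, of the Cyp4f18 family, fell by 0.86 ± 0.124 in knockout (adjusted p = 0.000542) and by 0.61 ± 0.124 in wild-type cells (adjusted p = 0.00700). Its values between genotypes were 0.04 ± 0.124 in M2 and 0.29 ± 0.124 in M0, and neither was past the threshold. Ptgr2, a prostaglandin reductase, was higher by 0.52 ± 0.117 in knockout M2 than in wild-type M2 cells (adjusted p = 0.0460). That call was lost on leaving out any array but wild-type M0 c (differences between 0.46 and 0.58, adjusted p-values up to 0.182). The wild-type call of Dpep2 was lost on leaving out any array but knockout M2 a or c or wild-type M0 b (-0.47 to -0.32, up to 0.159), and the M2 call of Akr1b8 without wild-type M2 array a (adjusted p = 0.0748).

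**Figure D5:**
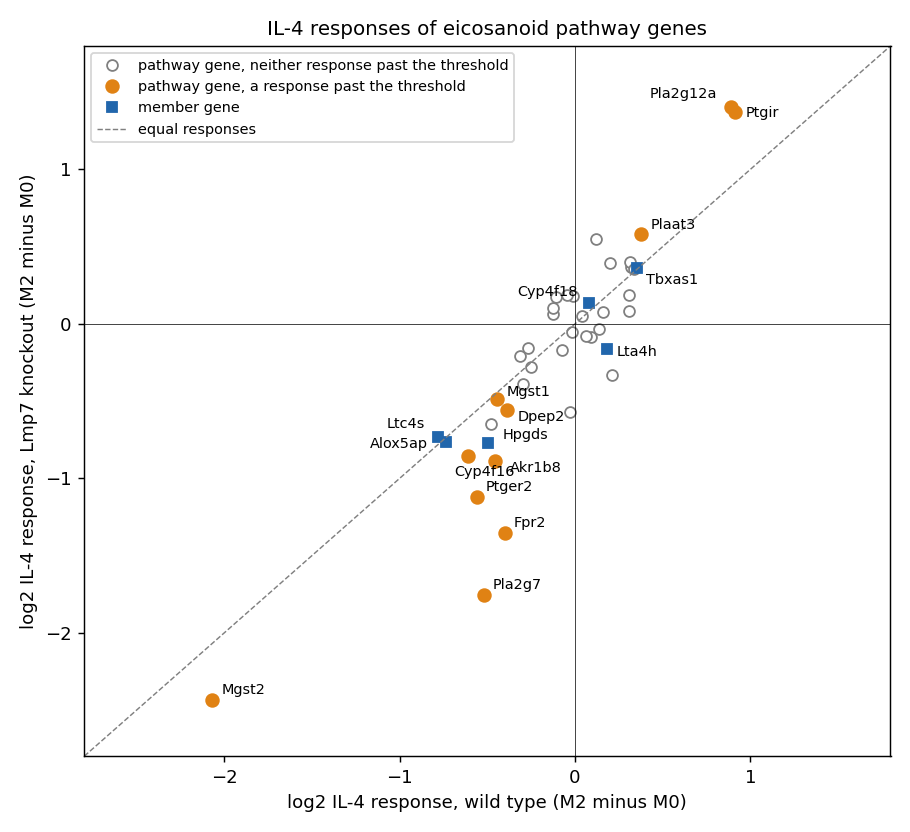
IL-4 response (M2 minus M0, log2 units) in Lmp7 knockout cells (vertical axis) against wild-type cells (horizontal axis) for the 6 named genes (squares) and 37 other pathway genes (circles, filled where a response was past the threshold). The dashed line marks equal responses. Mgst2 lies at -2.44 in knockout and -2.07 in wild-type cells, Ptgir and Pla2g12a lie at the upper right, and Pla2g7 and Fpr2 lie below the line.

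Genes with the most similar pattern over the 12 arrays were found by Pearson correlation, as a description over arrays that fall into M2 and M0 groups. Alox5ap ran most closely with Ccpg1 (r = 0.987), Il16 (0.981) and Mpp1 (0.980), and Ltc4s with Trpv2 (0.957), Nat2 (0.953) and Cxcr4 (0.947). Tbxas1 ran most closely with Ptma (0.960), Cd164 (0.959) and Ndufb4 (0.958), and Hpgds with Was (0.928), Dnajb6 (0.917) and Cd84 (0.904). Cyp4f18, which separated by genotype and not by IL-4, ran most closely with Exosc9 (0.921), Tomm22 (0.914) and Fdps (0.913).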

How the data were processed

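Per the file headers, the deposited table is not normalized and holds, for each of 25697 probes on 12 arrays, an intensity and a detection p-value. The deposited intensities span -72 to 12659 in whole units, and the negative ones show that background was taken off before deposit. The scanner software is not given in the sources used here. Column names carry the group but no replicate number. The authors' processed table, whose samples carry replicate numbers, holds deposited intensities on a linear scale with a median of 86 over all columns together, and served as an alternative. Its background offset and normalization are unknown.

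With limma 3.58.1 (R 4.3.3), background was corrected by normexp using the detection p-values (offset 16), followed by quantile normalization and log2. A probe was kept when at least 3 of 12 arrays had a detection p under 0.05, and the kept probe with the highest mean stood for its gene. One linear model with 4 group means (8 residual degrees of freedom) used all arrays, and the Benjamini-Hochberg adjustment ran over 6563 genes. The steps were tested on simulated data. Replicate arrays correlated at 0.951 to 0.978. Deviations of same-numbered samples from their group means correlated over 0.1 in all 3 pairs between knockout M2 and M0 (0.18 to 0.363) and between knockout and wild-type M0 (0.116 to 0.383), which is taken as pairing from the data and not the labels. It was so in 1 of 3 pairs between wild-type M2 and M0 and between knockout and wild-type M2. Every chosen gene is reported with all its probes, and pathway genes past the threshold are named, up to 4 a list and comparison. The genes and lists were chosen with earlier results of these data known.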

Additional observations from a re-analysis of the deposited data

Results flagged for a closer look

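The IL-4 response of 2 pathway genes differed between genotypes by the test of the difference itself (limma, adjusted over 6563 genes). Pla2g7 responded with -1.75 in knockout cells and -0.52 in wild-type cells, a difference of -1.23 ± 0.156 (adjusted p = 0.0150). Between genotypes, Pla2g7 differed by 1.42 in M0 and by 0.18 in M2 (adjusted p = 0.581 in M2). Its call for the difference of responses was lost without any of 6 arrays, with adjusted p-values up to 0.0783. That call was also lost with median scaling and without the 3 arrays of lowest detected share. Fpr2 responded with -1.35 in knockout cells and -0.40 in wild-type cells, a difference of -0.95 ± 0.150 (adjusted p = 0.04996). Its call was lost whichever of the 12 arrays was left out.

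Ptgir drew attention because every knockout array was above every wild-type array in M2 and below every one in M0. The genotypes did not overlap for 19.2% of all genes in M2 and 14.8% in M0, and the share with opposite directions was not counted. In M0 the closest Ptgir values were 8.55 in knockout and 8.56 in wild-type cells. The genotype difference was 0.28 ± 0.102 in M2 and -0.18 ± 0.102 in M0, and neither was past the threshold. The difference of the IL-4 responses was 0.46 ± 0.144 (limma, adjusted p = 0.504).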

How the results depend on the processing

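No result changed direction while past the threshold under any of the alternatives run. Of 211 repeats of the 9 differences of named genes past the threshold, 160 stayed past it and 51 fell short of it. Of 483 repeats of the 21 differences not past it, 0 passed. For the 14 pathway genes past the threshold in at least 1 comparison, which alone were repeated gene by gene, 120 of 657 repeats of past differences fell short, and 7 of 979 repeats of the others passed. In wild-type cells the count of named genes with an IL-4 response, 3, was 1 with median scaling and 1 to 3 with each array left out, and the pathway count, 9, was 3 with median scaling, 5 with only the groups compared in the fit, 5 without the 3 arrays of lowest detected share, and 4 to 9 with each array left out. In knockout cells the count of named genes, 4, was 2 with detection p under 0.01 on all 12 arrays, 1 with only the groups compared, 2 without the 3 arrays of lowest detected share, and 1 to 4 with each array left out, and the pathway count, 11, was 11 to 12 with each array left out. For the genotype difference in M0 the count of named genes, 1, was 0 with no filter, with the strict detection filter, with only the groups compared and without the 3 arrays of lowest share, and 0 to 1 with each array left out, and the pathway count, 1, was 3 with the authors' values and replicate block, 2 with array weights, and 1 to 2 with each array left out. In M2 the count of named genes, 1, was 0 with the strict filter, which removes Cyp4f18, and 0 without the 3 arrays, and 0 to 1 with each array left out, and the pathway count, 5, was 2 with median scaling, 1 with only the groups compared, 1 without the 3 arrays, and 1 to 4 with each array left out. For the difference of the responses the pathway count, 2, was 0 with median scaling, 1 with the strict filter, 1 with every kept probe tested, 0 without the 3 arrays, and 0 to 1 with each array left out. Apart from the filter and the smaller fits, the cause was not tested.

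Over all genes, median scaling gave 750 calls in place of 1422 for IL-4 in knockout cells, 469 in place of 1053 in wild-type cells, 47 in place of 134 between genotypes in M2, 24 in place of 45 in M0 and 1 in place of 7 for the difference of responses, whose median it moved to -0.10. Fits of only the groups compared gave 45 calls in M2 and 14 in M0, and leaving out the 3 arrays gave 41, 19 and, for the difference of responses, 0. The strict filter and the authors' values with the replicate block each gave 212 in M2, and testing every probe gave 4 for the difference of responses. With each array left out, calls ranged between 1076 and 1457 for IL-4 in knockout cells, 706 and 1069 in wild-type cells, 45 and 111 between genotypes in M2, 18 and 41 in M0, and 0 and 8 for the difference of responses.

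Replicate numbers exist only in the authors' processed table. Of the 18 same-numbered pairs over all groups, 11 correlated over 0.1, and 6 of 12 samples correlated best with their own number in every other group. With the replicate block, named genes past the threshold numbered 4 and 3 for IL-4 in knockout and wild-type cells and 1 and 1 between genotypes in M2 and M0, as without it. The pathway counts were 14 in place of 11 in knockout cells (Gpr18, Mboat7 and Ptges3 added), 11 in place of 9 in wild-type cells (Plaat3 and Ptges3 added), 4 in place of 5 in M2 (Ptgr2 lost) and 3 in place of 1 in M0. A block for slides was not run, because the columns name none. The probes of Alox15, Alox5 and Ptgs2 gave no signal above background on any array. Absent RNA cannot be told here from a probe that does not report its transcript. Ltc4s, Hpgds, Lta4h and Cyp4f18 lay near background, so their differences are limited by signal over background and by 3 arrays a group.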
